A study of Mus musculus with 4 samples.

Results

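The genes measured here encode, in the nucleus, the subunits of the 5 complexes of mitochondrial oxidative phosphorylation (OXPHOS). Members were taken by symbol: names beginning Nduf followed by a, b, c, s or v and a digit, Sdha to Sdhd, Uqcr, Cox followed by a digit from 4 to 8, and Atp5, without symbols holding -ps. This gave 87 of the 34968 symbols shared by all libraries, with 40 genes of complex I, 4 of complex II, 8 of complex III, 19 of complex IV and 16 of complex V. Of these, 81 had at least 1 TPM (a transcript level scaled for length and for the sum of its library) in at least 2 libraries and were tested. The 6 that did not pass were Cox6c2, Cox7b2, Cox8b, Cox8c, Ndufa11b and Ndufs6b. Ndufb4c, Ndufa11b, Ndufs6b and Cox6c2 are annotated as processed pseudogenes. The peripheral stalk gene named Atp5f1 in the replicate 1 files and Atp5pb in those of replicate 2 was left out by the rule, since neither name is in all files.

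The cells were mouse neurons made from ES cells of a C57/BL6 parental line with Dlx6a-Cre and Ai9, in which neurons of the ventral forebrain lineage turn on tdTomato. Both the N/D and the N/D/S line carried a Nestin-driven Nkx2-1 transgene that also makes the tetracycline transactivator, and the transactivator drove Dlx2 in N/D and Dlx2 together with V5-tagged St18 in N/D/S. Both lines were grown as floating embryoid bodies with XAV-939 and SAG, and tdTomato+ cells were sorted on day 12. Poly-A RNA was sequenced from 2 libraries of each line, labelled replicate 1 and replicate 2. The lines were selected as clones after stable transfection, so the effect of St18 and differences between clones cannot be told apart. No source used here says that the replicates were separate cultures, so p-values measure only the spread between these samples, which may be technical.

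Complex I (NADH dehydrogenase) and complex II (succinate dehydrogenase) pass electrons to ubiquinone, complex III passes them to cytochrome c, and complex IV (cytochrome c oxidase) passes them to oxygen. Complexes I, III and IV pump protons across the inner mitochondrial membrane, and complex V (ATP synthase) uses the gradient to make ATP. Neurons rely on this pathway for much of their ATP, and all complexes except complex II combine nuclear subunits with a few encoded by mitochondrial DNA.

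The library labelled N/D replicate 1 stood apart from the others. It had 13485 genes above 0, against 17197 to 20855 in the others. Of the genes that reached 10 TPM in all 3 remaining libraries, it lacked 9.99% (listed at 0), against at most 0.0434% elsewhere. St18 did not follow the labels: its level was 44.5 and 15.9 TPM under the N/D/S label and 28.5 and 26.6 TPM under the N/D label, in replicate order. Libraries are therefore named by their labels throughout, and every direction below rests on the labels alone. Whether the TPM of St18 include the introduced copy is not known. All 8 neuron markers were above 0 in every library, and their summed level, with Tubb3 the highest of them, ranged from 3311 to 5087 TPM. N/D/S replicate 2 was the lowest library for 7 of them (all but Tubb3), with 17.9 TPM of Dcx against 69.0 to 122.5 TPM in the others, and 103.1 TPM of Elavl4 against 311.7 to 426.6 TPM. Some markers of other cells moved with the replicate number: 4 pluripotency markers summed to 3.50 and 0.247 TPM in the replicate 1 libraries (N/D/S, then N/D) and to 290.5 and 184 TPM in those of replicate 2, where Dppa5a had 265.5 and 164.2 TPM and Pou5f1 19.5 and 7.55 TPM. The 6 astrocyte and oligodendrocyte markers summed to 12.8 and 0 TPM in replicate 1 and to 65.5 and 161 TPM in replicate 2. Their part in the results was not tested.

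Nuclear OXPHOS transcripts were abundant in all libraries and made up between 4.74% and 7.65% of the total. The 87 genes summed to 47430 TPM in N/D/S replicate 1, 71250 TPM in N/D/S replicate 2, 76510 TPM in N/D replicate 1 and 54070 TPM in N/D replicate 2. The highest and the lowest sum thus each came with a close neighbour from the other line, and the lines overlapped. The median tested member was at 515.1 and 731.3 TPM in N/D/S against 766.2 and 561.6 TPM in N/D, in replicate order, while the median of all tested genes was 19.8, 10.2, 4.96 and 18.0 TPM in the same order. In sorted bulk samples, a change in the share of cells of a type and a change in RNA per cell cannot be told apart.

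**Figure D1:**
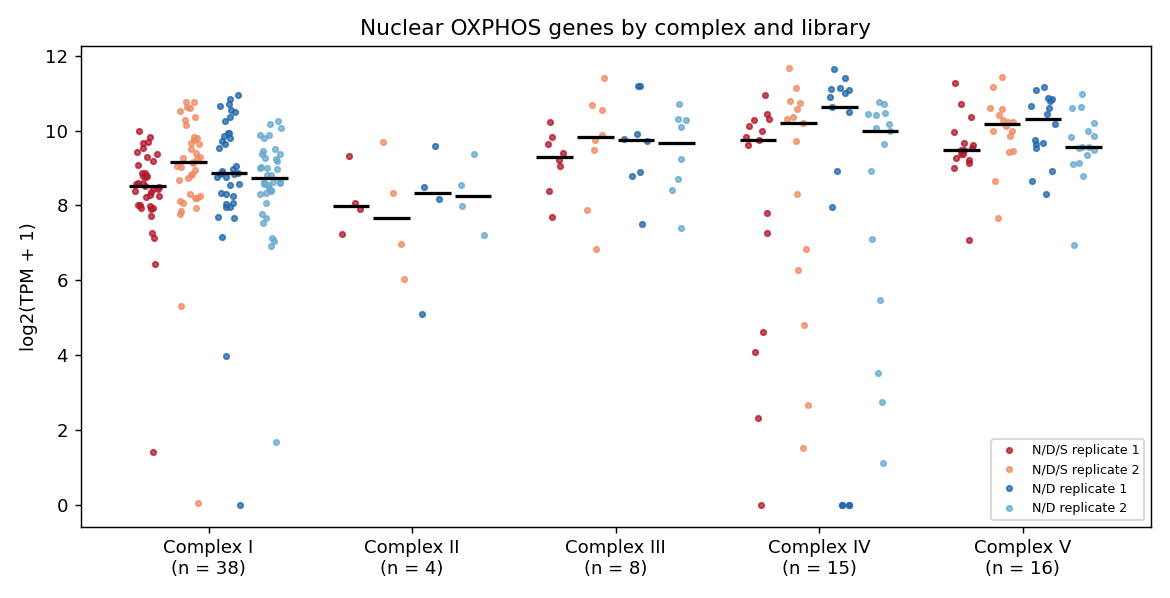
Level of each tested nuclear OXPHOS gene, as log2(TPM + 1) on the y axis, by complex on the x axis and by library (colours); points are genes and black bars are medians. In complexes I, III, IV and V the medians of N/D replicate 1 and N/D/S replicate 2 lie above those of the other libraries.

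No member passed the test between the lines. At an adjusted p under 0.05 (limma on log2(TPM + 1), with Benjamini-Hochberg adjustment over all 12975 genes tested), 0 of 81 members and 0 of all genes passed, which is a background of 0%. At an unadjusted p under 0.05, 0 members and 8 of all genes (0.0617%) passed, and with a limma variance trend, 0 members and 6 of all genes (0.0462%) passed at the adjusted threshold. The lowest unadjusted p of a member was 0.0636, for Cox7a1, and every member had an adjusted p of 1 in limma. With 2 libraries against 2, the smallest p of a two-sided exact permutation test is 0.333. Fold changes are on the log2(TPM + 1) scale, which understates the change of low genes.

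The fold changes of the members were small beside the distance between libraries of one line. The median log2 fold change (N/D/S over N/D) was −0.11 over the members and 0.26 over all genes tested, with 32 members above 0 and 49 below. By complex, the median was −0.06 for complex I (38 genes), −0.15 for complex II (4 genes), −0.24 for complex III (8 genes), −0.35 for complex IV (15 genes) and −0.03 for complex V (16 genes). Without N/D/S replicate 1 these were 0.21, −0.14, −0.08, 0.0033 and 0.23, and without N/D replicate 1 they were 0.06, −0.45, −0.08, −0.03 and 0.18, in the same order, so the signs for complexes I and V turned in both, and that of complex IV in the first. Centred on transcript length, they were −0.22 for complex I, −0.47 for complex II, −0.43 for complex III and −0.32 for complex V. The median distance of the members between lines, regardless of sign, was 0.28 on the log2 scale, and the median distance between libraries of the same line was 0.65. The distance within a line also holds any difference between replicate 1 and replicate 2. In 64 of 81 members (79.0%) the lines differed by less than the libraries within them, as did 83.1% of all genes. With quantile normalization the median was −0.08 for the members and −0.05 for all genes, and leaving out N/D replicate 1 made it 0.06 for the members and −0.29 for all genes. Without N/D/S replicate 1 it was 0.10 for the members and 0.02 for all genes, and among genes with 1 TPM or more in all 4 libraries −0.11 for the members and −0.15 for all genes. The members lay below all genes in the other settings run, with −0.39 against 0.57 without N/D/S replicate 2, −0.31 against 0.88 without N/D replicate 2, and −0.35 against −0.07 when centred on transcript length, with 17 members above 0 and 63 below. Which of the medians was higher thus depended on the setting.

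**Figure D2:**
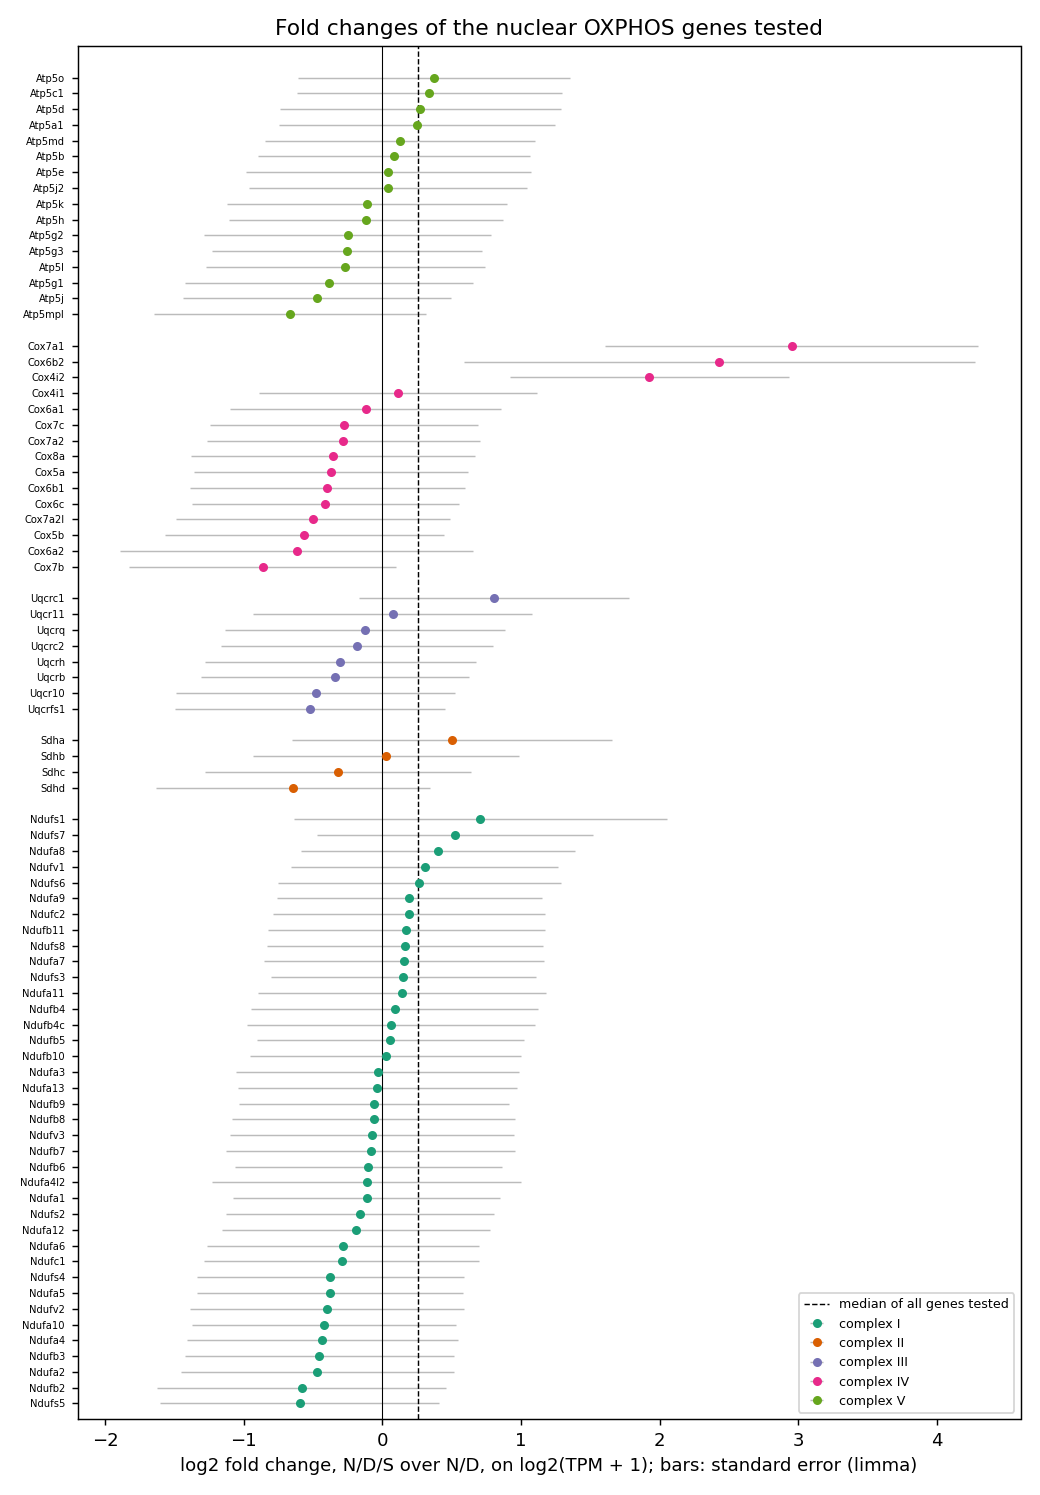
N/D/S over N/D as a log2 fold change for each of the 81 tested members (x axis, on log2(TPM + 1); bars are standard errors from limma), grouped by complex; the dashed line marks the median of all genes tested, at 0.26. Most genes lie within 1 unit of 0, and Cox7a1, Cox6b2 and Cox4i2 of complex IV lie farthest to the right.

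What the members shared was an order of libraries that crossed the lines. Within replicate 1, 65 of 81 members were lower in N/D/S, with a median log2 difference of −0.60, and within replicate 2, 59 of 81 were higher in it, with a median of 0.32. All genes tested had medians of 1.14 and −0.62 for the same differences, opposite in sign. Both signs together, lower in replicate 1 and higher in replicate 2, were found in 50 of 81 members (61.7%), beside 9.06% of all genes tested. The opposite pair of signs was found in 6 members (7.41%), beside 56.6% of all genes. N/D replicate 1 and N/D/S replicate 2 were the 2 highest libraries for 45 members (55.6%), beside 6.05% of all genes. N/D/S replicate 1 was the lowest library for 47 of 81 members (58.0%), beside 7.82% of all genes. N/D/S replicate 2 was the highest for 35 members (43.2%), beside 14.7% of all genes, and N/D replicate 1 for 31 (38.3%), beside 21.2%. N/D/S replicate 2 was also the library with the lowest level of most neuron markers, and the part of this in the order was not tested. These shares are a description, given without a test, since genes of one library are not replicates. All genes tested were not matched to the members for level, with medians of 4.96 to 19.8 TPM against 515.1 to 766.2 TPM. Among abundant genes of glycolysis, Gapdh, Aldoa, Tpi1 and Eno1 were also lower in replicate 1 and higher in replicate 2, while Pkm, Ldha, Gpi1 and Pgam1 were not. The part of level in these shares was not tested.

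**Figure D3:**
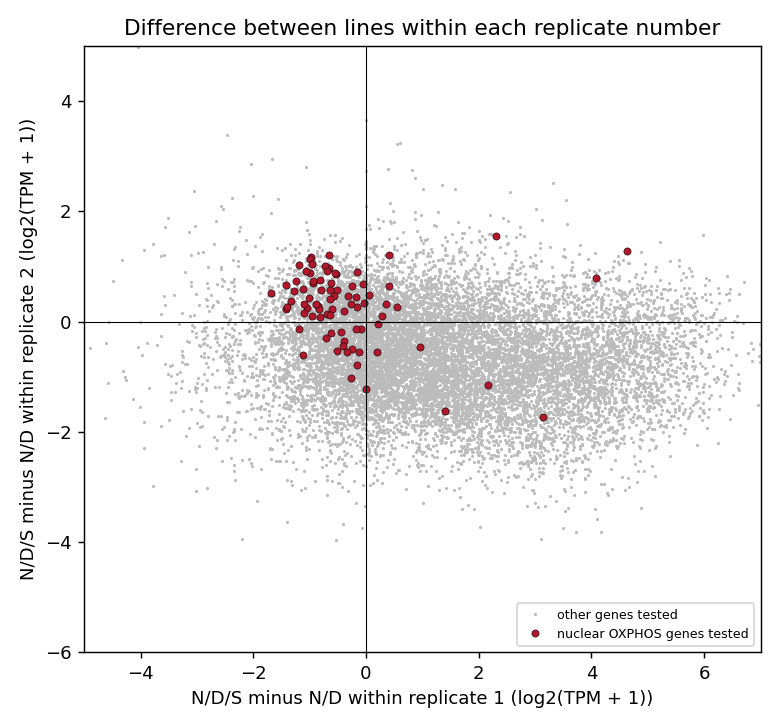
Difference between the lines within replicate 1 (x axis) and within replicate 2 (y axis), both as N/D/S minus N/D on log2(TPM + 1), for tested members (red) and other genes tested (grey); 15 genes, none of them members, lie outside the axes. Of the 81 members, 50 lie in the upper left field, while the grey cloud lies mostly in the lower right.

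Transcript length went with part of this order. The longest annotated transcript of the members had a median of 988.5 bases, against 3286 bases for all genes tested. Among transcripts under 1000 bases, N/D replicate 1 and N/D/S replicate 2 were the highest libraries for 60.98% of 41 members and for 24.6% of 991 genes of that length. From 1000 to under 2000 bases the shares were 54.2% of 24 members and 12.8% of all genes, and from 2000 to under 4000 bases 27.3% of 11 members and 3.70% of all genes. At 4000 bases and over the share fell to 1.67% of all genes, while all 4 members of that length (100%) had this order. These were Atp5l, Atp5g1, Ndufb7 and Ndufb2, each with more than 1 annotated transcript. The longest annotated transcript need not be the one expressed here, which also limits the correlations and the values centred on length. Across the tested members, which are not independent replicates and share their libraries, Spearman's correlation of length with the difference of N/D/S replicate 2 from N/D/S replicate 1 was −0.24, and −0.41 across all genes. For N/D replicate 1 minus N/D replicate 2 it was 0.08 across members and −0.13 across all genes. The part of length in the order was not tested beyond these values.

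The 6 members with the opposite order were Ndufs1, Sdha, Uqcrc2, Atp5a1, Atp5b and Ndufa4l2, named after their values were seen. Apart from Ndufa4l2, they encode large matrix-facing subunits, and the longest annotated transcripts of these 5 ran from 1896 to 2900 bases. Ndufs1, the largest iron-sulphur subunit of complex I, was at 138.0 and 38.7 TPM in N/D/S against 14.7 and 130.9 TPM in N/D. Sdha, the flavoprotein of complex II, was at 151.1 and 65.1 TPM in N/D/S against 33.0 and 146.5 TPM in N/D. For both genes, N/D replicate 2 and N/D/S replicate 1 were high and the other libraries low.

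The levels of complex I genes spanned a wide range, and the lines overlapped in most of them. The 7 core genes, which carry the redox centres, had mean levels from 80.6 to 542.4 TPM, and the 29 supernumerary genes, which surround the core, from 147.9 to 1385 TPM, counting Ndufa4 by its name. Of the core genes 5 had a log2 fold change above 0 (median 0.16), and of the supernumerary genes 10 (median −0.07). Ndufa4, once assigned to complex I and now known as a subunit of complex IV, was at 1019 and 1312 TPM in N/D/S against 1982 and 1228 TPM in N/D, and its log2 fold change was −0.43 (standard error 0.98), and −0.09 without N/D replicate 1. Ndufc1, a small membrane subunit, was at 911 and 1563 TPM in N/D/S against 1837 and 1163 TPM in N/D. In both genes N/D replicate 1 was highest and N/D/S replicate 1 lowest, with the lines overlapping.

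In complex I, 1 gene was higher in both N/D/S libraries than in both N/D libraries, and 4 were lower. Over all tested members, 5 lay above in this way (6.17%, beside 8.69% of all genes) and 12 lay below (14.8%, beside 8.23% of all genes). Ndufa9, a subunit at the junction of the membrane and matrix arms, was at 253.7 and 216.0 TPM in N/D/S against 207.5 and 201.4 TPM in N/D, and its log2 fold change was 0.19 (standard error 0.96), and −0.11 when centred on transcript length. Ndufb3, a membrane arm subunit, was at 209.7 and 266.2 TPM in N/D/S against 266.3 and 393.4 TPM in N/D, and its log2 fold change was −0.45 (standard error 0.97), and −0.17 without N/D replicate 2. N/D replicate 1 and N/D/S replicate 2 were almost level for Ndufb3, so its separation rests on a difference of under 1 TPM. The others below were Ndufa10, Ndufa5 and Ndufs4. Ndufa10 had the most even values, with 243.0 and 231.4 TPM in N/D/S against 321.2 and 314.8 TPM in N/D, and a residual standard deviation of 0.04 on the log2 scale beside a log2 fold change of −0.42. Its unadjusted limma p was 0.672, because limma sets the spread of a gene largely from all genes when there are 2 libraries a line.

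Ndufb4c could not be told apart from Ndufb4 with certainty. All of its 31-base stretches in the GENCODE transcripts also occur in Ndufb4, another membrane arm subunit, and the 2 symbols summed to 597 and 1442 TPM in N/D/S against 1192 and 655 TPM in N/D. In all, 68 of the 87 members shared at least 1 stretch of 31 bases with another gene, and 34 shared over 10% of theirs, so the split of reads between these members and their copies is uncertain.

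Complex II, which is also an enzyme of the TCA cycle, had the lowest summed level, and 1 of its 4 genes, Sdhb, had the common order of libraries. Its 4 genes summed to 1293 and 1343 TPM in N/D/S against 1448 and 1433 TPM in N/D. Sdhb, the iron-sulphur subunit, was at 636.8 and 829.3 TPM in N/D/S against 766.2 and 662.7 TPM in N/D, with N/D/S replicate 2 and then N/D replicate 1 highest and overlapping lines. The membrane anchor genes Sdhc and Sdhd were lower in both N/D/S libraries. Sdhc was at 265.4 and 324.1 TPM in N/D/S against 361.7 and 370.2 TPM in N/D, and its log2 fold change was −0.32 (standard error 0.96), with −0.17 when N/D/S replicate 1 was left out and −0.74 when values were centred on transcript length. Sdhd was at 239.4 and 124.0 TPM in N/D/S against 287.4 and 254.0 TPM in N/D, and its log2 fold change was −0.65 (standard error 0.99), with −0.17 when N/D/S replicate 2 was left out and −1.12 when N/D/S replicate 1 was. For neither anchor did the difference pass the test, with an adjusted p of 1 in limma.

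In complex III, the crossed signs were found among genes of small subunits. Of the 5 small subunit genes, 4 had them (all but Uqcrb), and of the 3 genes for the core proteins and the Rieske iron-sulphur protein, 0 had them, a contrast of few genes that was not tested. Uqcrq, the small ubiquinone-binding subunit, was at 1212 and 2732 TPM in N/D/S against 2337 and 1680 TPM in N/D. Uqcr10, another small subunit, was at 918 and 1633 TPM in N/D/S against 2322 and 1258 TPM in N/D. In both, N/D/S replicate 1 was the lowest library and the lines overlapped.

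Uqcrc1 and Uqcrfs1 separated the lines in opposite directions. Uqcrc1, a core protein, was at 591.9 and 952.5 TPM in N/D/S against 444.1 and 414.1 TPM in N/D, so that both N/D/S libraries were higher (log2 fold change 0.81, standard error 0.97, adjusted p = 1 in limma). Uqcrfs1, the Rieske protein, was at 332.7 and 236.4 TPM in N/D/S against 473.1 and 343.0 TPM in N/D, so that both N/D/S libraries were lower (log2 fold change −0.52, standard error 0.97, adjusted p = 1 in limma). The values of Uqcrfs1 nearest each other, 332.7 and 343.0 TPM, were close. Without N/D/S replicate 2, the log2 fold change was 0.46 for Uqcrc1 and −0.28 for Uqcrfs1. Uqcrb, the remaining gene with both N/D/S libraries lower, had a log2 fold change of −0.34.

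Complex IV held both the most abundant member, Cox4i1, and the least abundant, Cox8b. Of its 11 common subunit genes, 10 had a log2 fold change below 0, with a median of −0.37, and 8 had the crossed signs. The median depended on single libraries: over all 15 tested genes of complex IV the median was −0.03 without N/D replicate 1, with 7 above 0 and 8 below, and 0.0033 without N/D/S replicate 1. Cox4i1, the common form of a subunit that regulates the enzyme, had 1969 and 3283 TPM in N/D/S against 3196 and 1729 TPM in N/D. Cox6a1 was at 1404 and 2246 TPM in N/D/S against 2199 and 1691 TPM in N/D. For both genes N/D replicate 1 and N/D/S replicate 2 were close to each other and above the other libraries.

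Cox7b had the log2 fold change farthest below 0 among members whose lines did not overlap. This small membrane subunit was at 221.1 and 317.4 TPM in N/D/S against 481.7 and 483.1 TPM in N/D, with close values in both N/D libraries. The log2 fold change of Cox7b, −0.86, with a standard error of 0.96, did not pass the test (adjusted p = 1 in limma, unadjusted p = 0.401). Cox6c also lay lower in both N/D/S libraries, with 1252 and 1188 TPM against 1923 and 1371 TPM in N/D, a log2 fold change of −0.41. Cox7a2l, a factor that joins complexes III and IV into supercomplexes, was at 152.4 and 112.4 TPM in N/D/S against 248.7 and 137.8 TPM in N/D, with overlapping lines. It shares 16.6% of its 31-base stretches with Gm6969.

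Several complex IV subunits have a second gene that is used in heart, skeletal muscle, lung or testis, and in these neurons the common form prevailed in every pair. The restricted form made up at most 4.12% of a pair, reached by Cox6b2 in N/D/S replicate 2. Cox6b1, the common form, was at 1013 and 1764 TPM in N/D/S against 2184 and 1419 TPM in N/D, and Cox6b2, known from testis, was at 15.9 and 75.8 TPM in N/D/S against 0 and 43.5 TPM in N/D. Cox7a2, the common form, was at 781.5 and 1267 TPM in N/D/S against 1439 and 1014 TPM in N/D, and Cox7a1, known from heart and skeletal muscle, was at 23.7 and 27.1 TPM in N/D/S against 0 and 10.6 TPM in N/D. Cox4i2, known from lung, was at 3.95 and 5.34 TPM in N/D/S against 0 and 1.17 TPM in N/D. Each of these 3 restricted forms was listed at 0 in N/D replicate 1, which listed many other expressed genes at 0.

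The fold changes of these low genes rested in part on that library. Cox7a1 had a log2 fold change of 2.95 (standard error 1.34, unadjusted p = 0.0636 and adjusted p = 1 in limma), and 1.19 without N/D replicate 1. Cox4i2 had 1.93 (standard error 1.00, unadjusted p = 0.0964 and adjusted p = 1 in limma), and 1.37 without it. Cox6b2 had 2.43 (standard error 1.84, unadjusted p = 0.228 and adjusted p = 1 in limma), and −0.31 without it. Without N/D replicate 2, where the N/D library that remains has a 0, Cox7a1 and Cox6b2 passed the test, at 4.72 (adjusted p = 0.000991) and 5.17 (adjusted p = 0.000305) in limma, together with 2373 of all genes. The direction of Cox7a1 and Cox4i2 held with each library left out, and that of Cox6b2 did not. With pseudocount 0.1 the log2 fold changes were 4.62 for Cox7a1, 3.72 for Cox4i2 and 4.06 for Cox6b2. With quantile normalization they were 2.74, 1.14 and 1.58, in the same order.

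The restricted forms of the remaining pairs were also low. Cox6a2, the muscle form of Cox6a1, was at 0 and 1.88 TPM in N/D/S against 0 and 5.76 TPM in N/D. Ndufa4l2, a relative of Ndufa4 induced by low oxygen, had at most 2.17 TPM, in N/D replicate 2. Cox7b2 and Cox8c had at most 0.662 and 0.481 TPM, and Cox8b, the muscle form of Cox8a, was listed at 0 in all libraries. The 6 muscle markers summed to between 6.83 and 13.01 TPM, of which Myh7 had 4.71 to 13.01 TPM, Actc1 at most 5.32 TPM and Myh6 at most 2.76 TPM. Tnnt2, Ckm and Myod1 had at most 0.844, 0.0385 and 0.0197 TPM. Cox8a was at 1122 and 1696 TPM in N/D/S against 2705 and 1150 TPM in N/D, again with N/D replicate 1 and N/D/S replicate 2 highest.

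**Figure D4:**
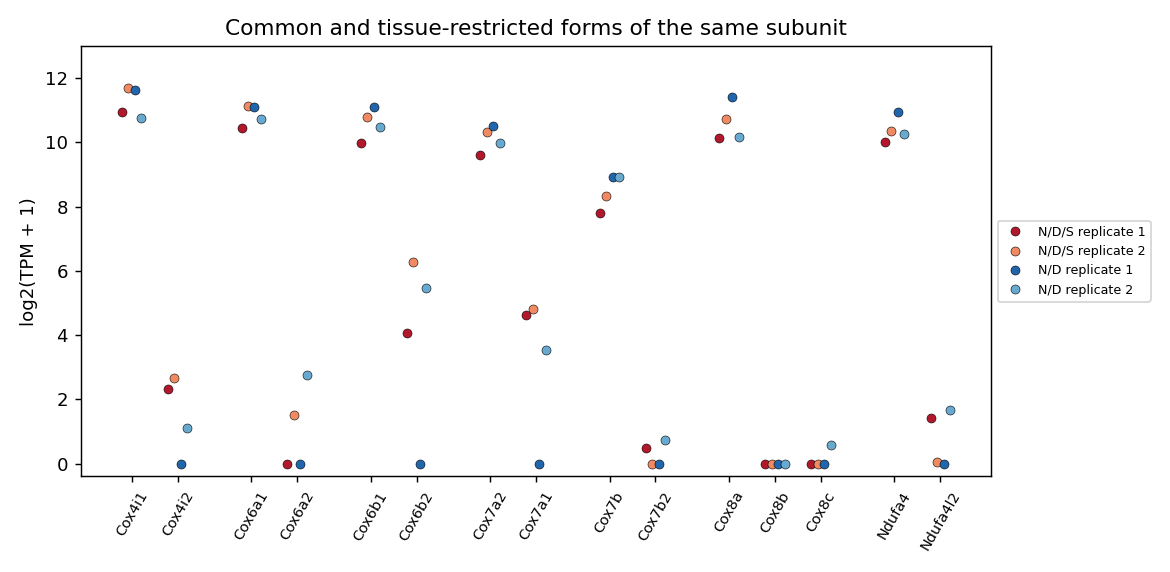
Level of the common and the restricted form of each subunit, as log2(TPM + 1) on the y axis, with 1 point for each library (colours). The common forms lie between 221.1 TPM (Cox7b) and 3283 TPM (Cox4i1) and the restricted forms at or below 75.8 TPM (Cox6b2).

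The 250 bases before the start of Cox8a and Cox8b are shown because this pair had the sharpest contrast in level, a mean of 1668 TPM against 0. The sequences are from RefSeq on GRCm38.p6, both on the minus strand. CG dinucleotides, which are common in promoters of broadly expressed genes, numbered 11 for Cox8a and 1 for Cox8b. In other pairs they numbered 14 for Cox6b1 and 8 for Cox6b2, and 14 for Cox7a2 and 4 for Cox7a1. Cox7b went the other way, with 5 against 9 for Cox7b2. The Cox8a window lies at chr19:7217617-7217866 and the Cox8b window at chr7:140900447-140900696. Neither window held any of the motifs searched, which are given further on with the promoters of other members.
Cox8a: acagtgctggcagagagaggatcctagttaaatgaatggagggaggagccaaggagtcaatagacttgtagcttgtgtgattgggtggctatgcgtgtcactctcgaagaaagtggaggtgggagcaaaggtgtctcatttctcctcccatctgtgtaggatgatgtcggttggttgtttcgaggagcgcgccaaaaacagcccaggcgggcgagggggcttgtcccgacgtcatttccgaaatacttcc
Cox8b: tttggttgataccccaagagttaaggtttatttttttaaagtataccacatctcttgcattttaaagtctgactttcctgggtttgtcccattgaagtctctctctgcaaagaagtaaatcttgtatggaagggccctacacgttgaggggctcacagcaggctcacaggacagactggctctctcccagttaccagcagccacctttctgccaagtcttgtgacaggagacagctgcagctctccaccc

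In complex V, the signs of the catalytic head and the membrane ring differed with all libraries included. All 5 genes of the F1 head and central stalk had a log2 fold change above 0 (0.04 to 0.34), and all 3 genes of the c ring had one below 0 (−0.38 to −0.25), though none passed the test. Atp5b, the catalytic beta subunit, was at 2488 and 1533 TPM in N/D/S against 2155 and 1575 TPM in N/D, with overlapping lines. Atp5c1, the gamma subunit of the rotor, was at 616.5 and 703.3 TPM in N/D/S against 481.9 and 561.6 TPM in N/D, so that both N/D/S libraries were higher (log2 fold change 0.34, standard error 0.96, adjusted p = 1 in limma). When values were centred on transcript length, the fold changes of Atp5b and Atp5c1 became −0.32 and −0.03. Leaving out N/D replicate 1 turned the log2 fold changes of the c ring genes to 0.28 for Atp5g1, 0.44 for Atp5g2 and 0.12 for Atp5g3, beside 0.31 for Atp5b and 0.23 for Atp5c1. Atp5b turned below 0 when N/D/S replicate 1 (−0.27) or N/D replicate 2 (−0.14) was left out.

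The c ring is encoded by 3 genes whose mature proteins are the same, and their shares were uneven between libraries. Atp5g1 was at 664.9 and 1124 TPM in N/D/S against 1788 and 710.1 TPM in N/D. Atp5g3 was at 997.2 and 1013 TPM in N/D/S against 1545 and 927.8 TPM in N/D, and Atp5g2 was at 133.8 and 203.0 TPM in N/D/S against 316.7 and 121.0 TPM in N/D. Atp5g1 made up 37.0% and 48.0% of the sum in N/D/S and 49.0% and 40.4% in N/D, so its share followed the order of libraries rather than the line. Atp5g1 shares 7.23% of its 31-base stretches with Gm10039, which had 614.1 to 1516 TPM, and Atp5g2 shares 37.5% with Gm10175, which had 337.7 to 883.8 TPM, so their levels are uncertain.

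The peripheral stalk and the small membrane subunits of complex V gave a pair of genes lower in both N/D/S libraries. Atp5j, coupling factor 6 of the peripheral stalk, was at 713.0 and 686.3 TPM in N/D/S against 794.2 and 1189 TPM in N/D, and its log2 fold change was −0.47 (standard error 0.97), and −0.18 without N/D replicate 2. Atp5mpl, a small membrane subunit, was at 808.7 and 927.9 TPM in N/D/S against 1845 and 1026 TPM in N/D, and its log2 fold change was −0.67 (standard error 0.98), and −0.24 without N/D replicate 1. Both had an adjusted p of 1 in limma. Atp5md, a small subunit that supports dimers of the enzyme, was the most abundant gene of complex V, with 1665 and 2753 TPM in N/D/S against 1892 and 2021 TPM in N/D, and its lines overlapped.

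The 13 OXPHOS subunits encoded by mitochondrial DNA did not follow the order of the nuclear genes. They summed to 26950 and 44900 TPM in N/D/S against 23280 and 40580 TPM in N/D, so that both replicate 2 libraries were high and both replicate 1 libraries low. Their median log2 fold change was −0.04, and 0 of 13 passed the adjusted threshold in limma. Without N/D replicate 1, the median was −0.74, with 2 genes above 0 and 11 below, beside −0.29 for all genes. The ratio of the nuclear to the mitochondrial sum was 1.76 and 1.59 in N/D/S and 3.29 and 1.33 in N/D, with N/D replicate 1 highest. Since these sums were made from poly-A selected RNA, the ratio describes the libraries and not the amounts of subunits.

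**Figure D5:**
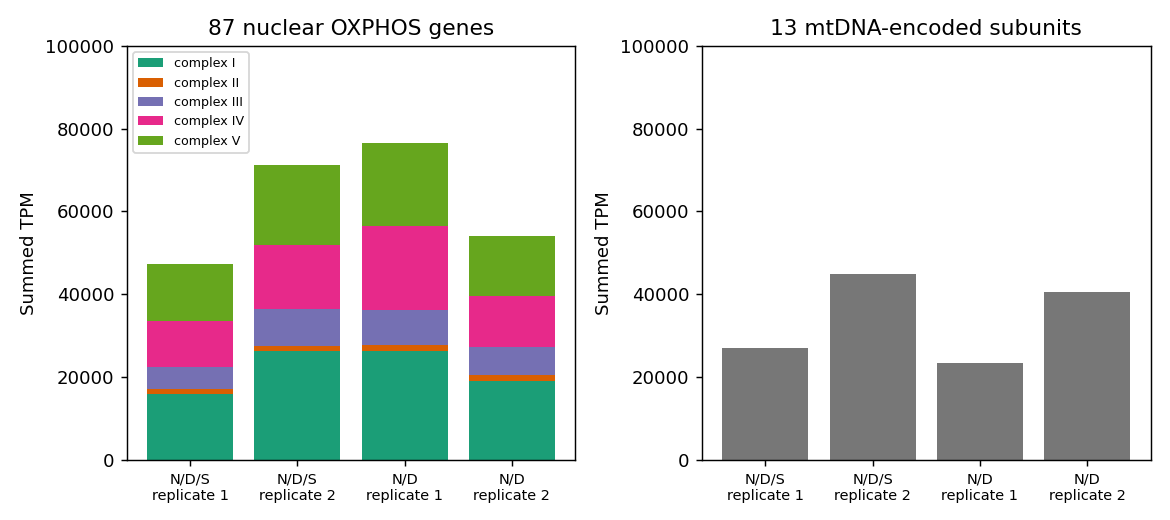
Summed TPM of the 87 nuclear OXPHOS genes by complex (left, stacked) and of the 13 subunits encoded by mitochondrial DNA (right), by library. The nuclear sum is highest in N/D replicate 1 (76510 TPM) and the mitochondrial sum in N/D/S replicate 2 (44900 TPM).

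Other genes of the pathway were counted from lists. The 48 tested assembly factors, which build the complexes and are not part of them, had 24 log2 fold changes above 0 and 24 below, with a median of −0.04, and 0 passed the adjusted threshold in limma. Of these, 14 were lower and 1 was higher in both N/D/S libraries than in both N/D libraries, beside 8.23% and 8.69% of all genes. Without N/D replicate 1 the assembly factors had 13 log2 fold changes above 0 and 35 below (median −0.18), with quantile normalization a median of −0.26, and among genes with 1 TPM or more in all 4 libraries 9 above and 24 below (median −0.50). Cox20, a chaperone of a complex IV core subunit, was at 205.2 and 146.5 TPM in N/D/S against 447.1 and 331.2 TPM in N/D. Of the 14 tested regulators of mitochondrial biogenesis, 9 lay above 0 and 5 below, with a median of 0.37 that became −0.33 without N/D replicate 1, beside 0.26 and −0.29 for all genes. Nrf1, an activator of many nuclear OXPHOS genes, was at 42.5 and 10.9 TPM in N/D/S against 10.99 and 35.0 TPM in N/D, which is the reverse of the signs of most members and the pair of signs that 56.6% of all genes had. Cycs, the cytochrome c of somatic cells, was at 57.2 and 59.0 TPM in N/D/S against 69.4 and 89.0 TPM in N/D.

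Promoters of the members were searched for motifs of factors known to act on nuclear OXPHOS genes. RefSeq windows of 250 bases before the start were at hand for 67 members (72 windows, GRCm38.p6), and each motif was searched on both strands. The NRF1 motif, spelled GCGCA, any base, then GCGC, was in 19.4% of the member windows, beside 3.74% of all 32851 windows and 8.13% of the 12649 windows of genes tested. The ETS family motif, spelled CCGGAAG, was in 16.7% of member windows, beside 6.91% of all windows and 13.3% of those of genes tested. The YY1 motif AAGATGGCG and the ERR motif TCAAGGTCA were in 1.39% of member windows each, which is 1 window each, beside 0.606% and 0.387% of all windows and 1.13% and 0.285% of those of genes tested. Motifs were counted whether or not they overlapped another. The median window held 14 CG dinucleotides in members and 16 in genes tested. A match is a description of letters and does not show binding.

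The NRF1 motif was found in 13 members: 6 of complex I, 2 of complex II, 1 of complex IV and 4 of complex V, with 0 of the 5 matched genes of complex III. To show how it lies in them, 50 bases of 1 member from each of these complexes follow, read 5′ to 3′ on the minus strand, on which all 4 genes lie, with the motif in capitals. They lie at chr4:123718255-123718304 for Ndufs5, a complex I accessory subunit, chr9:50603899-50603948 for Sdhd, chr5:115349091-115349140 for Cox6a1 and chr11:115420031-115420080 for Atp5h, the peripheral stalk subunit d. The motif begins 98, 79, 162 and 141 bases before the start of these genes, in the same order.
Ndufs5: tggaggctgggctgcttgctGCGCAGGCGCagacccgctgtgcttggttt
Sdhd: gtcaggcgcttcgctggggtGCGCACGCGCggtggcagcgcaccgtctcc
Cox6a1: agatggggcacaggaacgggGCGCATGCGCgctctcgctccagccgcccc
Atp5h: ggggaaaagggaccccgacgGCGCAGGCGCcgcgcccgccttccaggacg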

How the data were processed

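The data were transcript levels in sorted tdTomato+ neurons, 2 libraries from N/D and 2 from N/D/S. The authors deposited 1 TPM value for each gene symbol and library. The submitters' processing notes name kallisto 0.44.0, sleuth and GRCm38; the transcriptome release and the way transcripts were combined into genes are not given in the sources used here. Depth cannot be read from TPM, and no counting interval is given.

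The files were joined on symbol, and repeated symbols and symbols turned into dates were left out. Genes reaching 1 TPM in 2 or more libraries were fitted with limma 3.58.1 in R 4.3.3 on log2(TPM + 1), N/D/S against N/D, without covariates, with Benjamini-Hochberg adjustment and a threshold of 0.05. Sleuth was not used, since it needs the resampled kallisto output. The fit was run on simulated data with less spread than these libraries, which checks the calculation and not its power here. Transcript lengths and shared 31-base stretches came from GENCODE M21, which need not be the index used upstream, and promoters from RefSeq, both on GRCm38. Tables were made in Python 3.11.15 with pandas 2.3.3.

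Groups and replicate numbers came from the labels. Members and gene lists were chosen with earlier results of these data known. Given in full were the 2 most abundant members of each complex, the tissue isoforms and their partners, members whose lines did not overlap (at most the 6 with the largest change in each direction), and members listed at 0 in 1 library with at least 10 TPM in the others. Alternatives were other pseudocounts, filters and scalings, the replicate number as a block, and each library left out in turn. A setting meant as a natural log scale was run on log2 with pseudocount 0.5 and so repeats that setting. A variance trend, quantile normalization and centring on transcript length were chosen after seeing the data.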

Additional observations from a re-analysis of the deposited data

How the results depend on the processing

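Over 40 results, 627 alternative values were computed, with those at pseudocount 0.5 counted again under another name. Of the 627 values, 590 changed neither in direction nor across the threshold, or were counts and medians that stayed within a set margin. For medians the margin was the spread between libraries of a line, whatever the sign, so medians that turned in sign are among the 590. For all genes this spread was 0.95, and the median ranged from −0.29 to 0.88 with 1 library left out. With all libraries kept, the number of genes past the adjusted threshold in limma was 0 in every setting except the variance trend, at 6, and the number of members was 0 in every setting. With 1 library left out, these numbers ranged from 0 to 2373 and from 0 to 2. The high values came without N/D replicate 2, where the N/D library that remains is the one that listed many expressed genes at 0. Without either N/D library, limma gave all genes the same standard deviation, 0.94, and the lone N/D library is assumed to vary like the others. Over all genes the median fold change, on the log2 scale, shifted from 0.26 to −0.15 where every library had to reach 1 TPM, to −0.05 with quantile normalization and to −0.07 when centred on length, where that of the members went from −0.11 to −0.35, of complex I to −0.22, of complex III to −0.43 and of complex V to −0.32. The median of complex II was −0.47 when centred on length, and −0.45 to −0.14 with 1 library left out. With 1 library left out, the median of the members ranged from −0.39 to 0.10, of complex I from −0.39 to 0.21, of complex III from −0.45 to −0.075, of complex IV from −0.56 to 0.0033 and of complex V from −0.48 to 0.23. Centring on length turned the log2 fold change of Sdhb to −0.21, Atp5b to −0.32, Atp5c1 to −0.033 and Ndufa9 to −0.11, and median-of-ratios scaling turned Sdhb to −0.023. With 1 library left out, the direction changed for Ndufc1 (−0.68 to 0.10), Sdhb (−0.16 to 0.22), Uqcrq (−0.71 to 0.46), Cox4i1 (−0.33 to 0.56), Cox6a1 (−0.46 to 0.22), Atp5md (−0.23 to 0.49), Atp5b (−0.27 to 0.43), Cox6a2 (−1.99 to 0.76), Cox6b1 (−0.80 to 0.0033), Cox6b2 (−0.31 to 5.17), Cox7a2 (−0.63 to 0.069), Cox8a (−0.97 to 0.26), Ndufa4l2 (−0.94 to 0.72), Atp5g1 (−1.05 to 0.28), Atp5g2 (−0.94 to 0.44) and Atp5g3 (−0.62 to 0.12). The cause was not tested for any of these. With a replicate block, 0 genes and 0 members passed the adjusted threshold, 9 genes had an unadjusted p under 0.05, and no other call changed. Same-numbered libraries had a correlation of 0.0197 in their deviations from the line means across all genes, and −0.13 across members. The numbers were not used to pair them in the main fit. These correlations do not exclude a difference between the replicate numbers. The replicate 1 files had 35197 rows and those of replicate 2 had 35204, and some gene names and marker sums also went with the number.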

Other observations

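Genes of glycolysis, the pathway that makes pyruvate and ATP in the cytosol, did not pass the test between the lines. Of the 17 genes listed, 15 had a log2 fold change above 0, with a median of 0.43 beside 0.26 for all genes tested, and beside 7967 of 12975 of all genes above 0. In limma 0 passed the adjusted threshold, with 0 at an unadjusted p under 0.05, and the difference of the list from other genes was not tested. In 6 of them both N/D/S libraries were above both N/D libraries, beside 8.69% of all genes. Without N/D replicate 1, the median was 0.40 and 12 of 17 lay above 0, beside a median of −0.29 for all genes. With quantile normalization, the median was 0.50. Pkm, which makes pyruvate, was at 1983 and 1459 TPM in N/D/S against 1160 and 1290 TPM in N/D. Gpi1, which acts early in the pathway, was at 588.7 and 474.8 TPM in N/D/S against 428 and 345.6 TPM in N/D. Both genes had higher values in both N/D/S libraries. Pfkp, an isoform of phosphofructokinase, was at 57.3 and 21.1 TPM in N/D/S against 65.9 and 42.9 TPM in N/D, a log2 fold change of −0.59. St18 did not separate these libraries, so the direction rests on the labels.

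Genes of the TCA cycle and of pyruvate dehydrogenase were counted without the subunits of complex II. Of 17 genes, 12 had a log2 fold change above 0, with a median of 0.24 beside 0.26 for all genes, and 0 passed the adjusted threshold in limma, with 0 at an unadjusted p under 0.05. Without N/D replicate 1, the median was −0.25, beside −0.29 for all genes. After quantile normalization it was 0.29 (11 genes above 0 and 6 below), beside −0.05 for all genes, and with at least 1 TPM required in every library it was 0.15 over 13 genes, beside −0.15. Within replicates, N/D/S minus N/D had medians of 1.14 and −0.61, beside 1.14 and −0.62 for all genes. Cs, citrate synthase, was at 187.3 and 93.5 TPM in N/D/S against 68.9 and 143.4 TPM in N/D, an order opposite to that of most nuclear OXPHOS genes. Ogdh, a subunit of 2-oxoglutarate dehydrogenase, had 113.8 and 64.6 TPM in N/D/S, 0.00397 TPM in N/D replicate 1 and 84.8 TPM in N/D replicate 2.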
